A study of Mus musculus with 8 samples.

Results

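The 10 genes described here code for the mouse inflammasome: the sensors Nlrp3, Nlrp1a, Nlrp1b, Nlrc4 and Aim2, the adaptor Pycard (ASC), the caspases Casp1 and Casp4, and the cytokines Il1b and Il18. They are 10 of the 23284 gene symbols in the RNA-seq tables of 2 kinds of mouse hematopoietic progenitors with and without Pcgf1, and all 10 symbols were present in both tables. The genes were selected by pathway around Nlrp3, after its low level in Pcgf1-KO IdHPCs had been seen. Values of the 10 genes in IdHPCs are therefore given as a description without a test, and tests are given for LMPPs.

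An inflammasome is a cytosolic complex that forms when a sensor meets a microbial or danger signal, recruits the adaptor ASC and brings caspase-1 molecules together so that they cleave themselves. Active caspase-1 matures interleukin-1β and interleukin-18 and cuts gasdermin D, whose fragments open pores and lead to the lytic cell death called pyroptosis. In macrophages, transcription of Nlrp3 and Il1b is a separate priming step that NF-κB drives before the complex can assemble. Progenitor cells can also carry these components before any myeloid cell has matured.

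IdHPCs are bone marrow progenitor lines that keep their potential through transduced Id3, an inhibitor of E proteins. LMPPs are lymphoid-primed multipotent progenitors taken from bone marrow. The labels give 8 libraries in all, of strain B6CBAF1/J and passage 15 to 18, with 2 of genotype Pcgf1 fl/fl (control) and 2 of genotype Pcgf1 -/- (KO) for each cell type, and name co-culture on TSt-4 stroma with IL-7, SCF and Flt3 ligand for every library. The study describes its LMPPs as primary bone marrow cells, so the labelled passage is uncertain for them. Exons 2 to 7 of Pcgf1 are removed by Cre-ERT2 once 4-hydroxytamoxifen (4-OHT) is added. The LMPP controls were Pcgf1 fl/fl cells without the ERT2-Cre transgene that also received 4-OHT, whereas the treatment of these control IdHPC libraries is not stated, although another experiment of the study used ethanol, the vehicle, for its control IdHPCs. By the age range that the study gives for all its animals, the mice were young adult females. The labels do not say whether libraries of a group came from separate cultures or animals, although the study describes its RNA-seq as independent duplicates. The p-values measure the spread between these libraries.

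Libraries held between 9618849 and 25302206 reads on distinct exon rows, and 1 read was worth between 0.0287 and 0.0757 CPM, the count of a row scaled by the library total. Reads on exons 2 to 7 of Pcgf1 numbered 15 and 15 in the KO IdHPC libraries and 193 and 173 in the control IdHPC libraries. Among the LMPP libraries they numbered 76 in the library labelled KO 1, 84 in the library labelled control 1, and 0 in both the library labelled KO 2 and the library labelled control 2. The library labelled KO 1 and the library labelled control 2 thus went against their labels. LMPPs are described below in both ways, as libraries without these reads (labelled KO 2 and control 2) against libraries with them (labelled KO 1 and control 1), and by label. The first arrangement coincides with the replicate number, so that exon loss and replicate number cannot be told apart. Flt3 (365.66 to 440.41 CPM) and Cd34 (721.32 to 800.13 CPM), which mark LMPPs, were high in all 4 LMPP libraries, whereas Ly6a, which codes for the defining marker Sca-1, stood at 2.80 to 14.7 CPM. In IdHPCs Flt3 stood at 425.39 to 631.45 CPM, Cd34 at 104.7 to 247.3 CPM and Ly6a at 34.4 to 76.7 CPM.

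The sequences that lie before 3 of the genes are shown because Nlrp3 and Nlrc4 had the 2 largest differences of the 10 genes between LMPP libraries without and with Pcgf1 exon reads, and Casp1 went in opposite directions in the 2 cell types. Each is the RefSeq window from 250 bases before to 50 bases after a gene's start (assembly GRCm38.p6), written 5′ to 3′ on the strand of the gene, with CpG dinucleotides in capitals. The Nlrp3 window, that of the 10-exon transcript, lies at chr11:59355938-59356237 in mm9, plus strand. The Nlrc4 window lies at chr17:74858399-74858698, minus strand, and the Casp1 window at chr9:5298267-5298566, plus strand, both in mm9.
Nlrp3: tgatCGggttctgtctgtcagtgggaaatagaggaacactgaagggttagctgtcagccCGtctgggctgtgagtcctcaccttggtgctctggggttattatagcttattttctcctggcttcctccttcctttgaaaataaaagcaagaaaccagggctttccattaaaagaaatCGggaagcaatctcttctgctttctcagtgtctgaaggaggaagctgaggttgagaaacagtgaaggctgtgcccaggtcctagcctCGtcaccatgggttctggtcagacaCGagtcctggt
Nlrc4: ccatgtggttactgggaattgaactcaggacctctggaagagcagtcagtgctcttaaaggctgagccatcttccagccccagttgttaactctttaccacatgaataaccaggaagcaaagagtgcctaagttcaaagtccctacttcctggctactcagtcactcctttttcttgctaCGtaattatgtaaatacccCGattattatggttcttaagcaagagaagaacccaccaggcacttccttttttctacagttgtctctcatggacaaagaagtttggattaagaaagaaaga
Casp1: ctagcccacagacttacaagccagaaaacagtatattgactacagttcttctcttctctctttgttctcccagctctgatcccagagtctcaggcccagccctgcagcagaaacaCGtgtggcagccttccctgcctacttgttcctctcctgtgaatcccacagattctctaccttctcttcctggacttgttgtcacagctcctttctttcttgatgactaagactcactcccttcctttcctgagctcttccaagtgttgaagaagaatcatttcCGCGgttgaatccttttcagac

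Unmethylated CpG-rich promoters are the usual sites at which PCGF1-PRC1 is recruited, through KDM2B. The windows above hold 5, 2 and 3 CpG dinucleotides. All 10 genes matched the RefSeq promoter table, with 13 windows, each of which was found once in mm9. These 13 windows held 0 to 5 CpG dinucleotides with a median of 3, and all 13 held fewer than 7, the median of the 32851 windows of the table. The letters GAGGAA, a core that the myeloid factor PU.1 can bind, were searched on both strands and occurred in 6 of the 13 windows, 3 times in the Nlrp3 window above and 0 times in the other Nlrp3 window, at chr11:59354821-59355120, against 28.3% of all windows. TGACTCA, the AP-1 motif, was found on either strand in 0 of the 13 and in 5.20% of all windows. A match of letters is a description of the sequence and does not show binding.

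Nlrp3 (ENSMUSG00000032691.7) lies on mouse chromosome 11 at 59355070 to 59380458, plus strand, in mm9. Its protein senses a wide range of danger signals, among them potassium efflux, crystals and extracellular ATP. In IdHPCs Nlrp3 stood at 22.0 and 26.8 CPM in the control libraries (720 and 934 reads). In the KO libraries it stood at 0.351 and 0.376 CPM (10 and 8 reads). The groups did not overlap, and both KO libraries lay close to the bottom of what these libraries could measure, since 3 reads corresponded to 0.105 and 0.141 CPM. The mean of the controls was 67.1-fold that of the KO libraries, and the difference was -4.21 on the log2(CPM + 1) scale, with an SD of 0.019 among the KO and 0.19 among the control libraries (n = 2 each). By size this was the third lowest of the 12273 differences tested in IdHPCs. This is the contrast in which Nlrp3 was noticed, so its rank is given as a description.

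**Figure D1:**
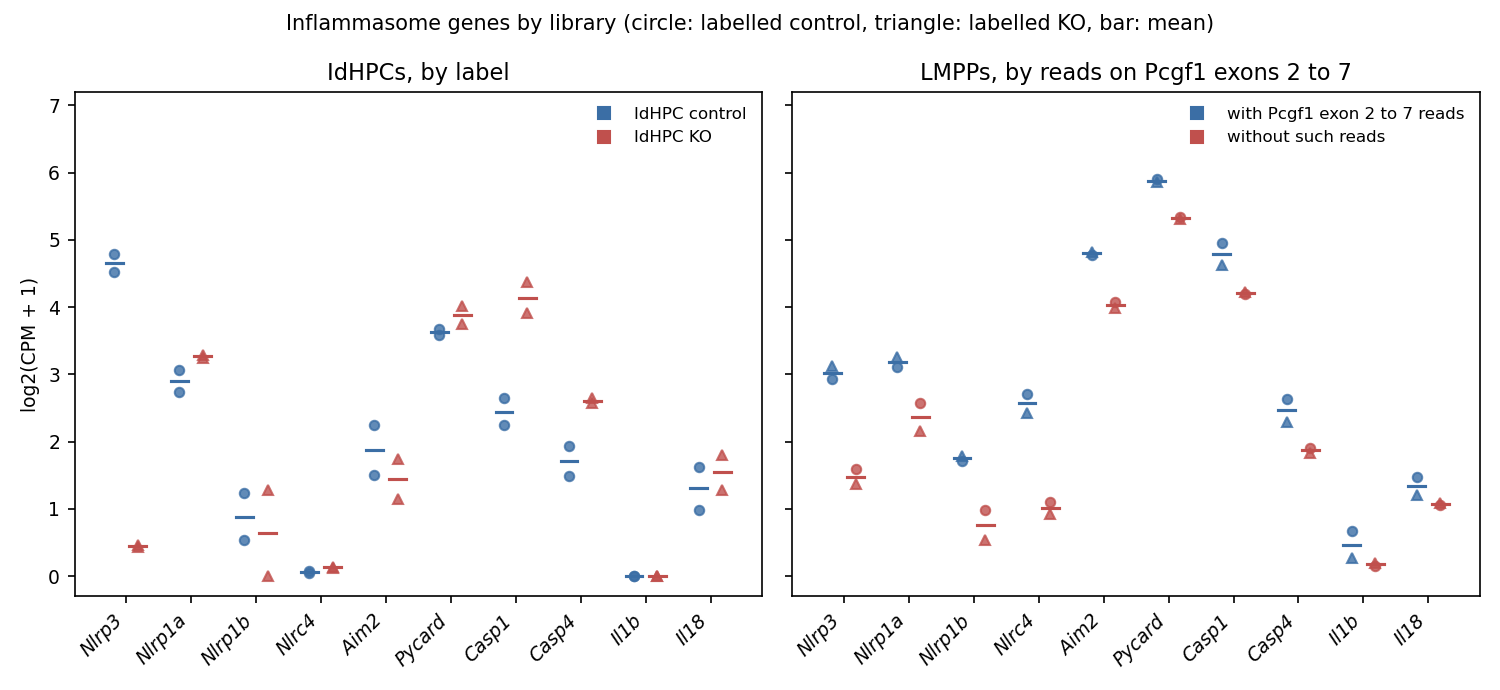
Level of the 10 inflammasome genes in each library on the log2(CPM + 1) scale, for IdHPCs by label (left) and LMPPs by reads on Pcgf1 exons 2 to 7 (right), with bars at the mean of 2 libraries. Both KO IdHPC libraries lay far below both controls for Nlrp3 and above them for Casp1, and all 9 genes that passed the filter in LMPPs were lower in the LMPP libraries without these reads.

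The low level of Nlrp3 in KO IdHPCs extended over the whole gene. The tables list 10 Nlrp3 rows without coordinates, here taken in their order as the 10 exons of transcript ENSMUST00000101148.2, which have lengths of 182, 321, 114 and 1756 bases, then 171 bases for each of exons 5 to 9, and 793 bases for exon 10. Exon 4 holds 43.7% of the transcript's bases, and the repeated exons of 171 bases code for leucine-rich repeats, the part of the protein that folds back on the rest. All 10 rows were lower in both KO than in both control IdHPC libraries. Reads summed over the 2 control libraries ranged from 39 on row 1 to 714 on row 4, whereas the 2 KO libraries together held at most 5 reads on any row and none on rows 1, 5 and 9. On no row did the mean CPM of the KO libraries exceed 7.39% of that of the controls.

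Along the transcript, the largest exon took 714 of the 1654 control reads of Nlrp3, or 43.2% (exact Clopper-Pearson 95% interval 40.8 to 45.6%). In the KO libraries 2 of 18 reads, or 11.1% (1.38 to 34.7%), lay on it. The remaining KO reads were scattered, with 5 on row 2, 2 on row 3, 1 on row 6, 4 on row 7, 1 on row 8 and 3 on row 10. Such intervals cover counting error only, and would be too narrow if a read that spans 2 exons were counted on both, which the methods do not state.

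In LMPPs Nlrp3 was lower in the libraries without reads on Pcgf1 exons 2 to 7, and this difference passed the test. It stood at 7.69 CPM (112 reads) in the library labelled KO 1 and 6.64 CPM (90 reads) in the library labelled control 1, which have these reads. It stood at 1.59 CPM (21 reads) in the library labelled KO 2 and 2.01 CPM (35 reads) in the library labelled control 2, which lack them. The groups did not overlap and each pair lay close together. The mean was 3.97-fold lower without than with the reads, a difference of -1.54 ± 0.17 on the log2(CPM + 1) scale (SE, 95% interval -1.93 to -1.16, n = 2 each, limma adjusted p = 0.000301). It was number 54 from the bottom among 12153 genes, of which 17.2% were called in this arrangement, 10.1% higher and 7.08% lower.

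By label the same 4 libraries did not separate. Each label held 1 library of the high pair and 1 of the low pair, and the difference of KO from control was -0.02 ± 0.68 (SE, 95% interval -1.68 to 1.65, limma adjusted p = 1.0). By label 0.00% of all genes were called with limma, with 2 of 12153 at an unadjusted p below 0.05, and 0 were called with edgeR's exact or quasi-likelihood test or with DESeq2.

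In the exon rows of LMPPs, 7 of the 10 Nlrp3 rows were lower in both libraries without Pcgf1 exon reads than in both with them, and rows 5, 6 and 7 overlapped. Row 4, with the most reads, held 56 and 35 reads in the libraries with and 9 and 12 reads in the libraries without these reads, or 3.21 against 0.686 CPM on average. Among the 7 rows with more than 3 reads in each group, the log2 ratio of mean CPM ran from -2.55 on row 10 to -0.36 on row 6. Rows 5, 6 and 7 carried between 1 and 7 reads per library, and rows 1, 2 and 3, counted as lower, carried as few, with 0 against 3, 5 against 13 and 1 against 8 reads summed over the 2 libraries of each group. At this depth the order of single rows other than row 4 could not be firmly read. The share of reads on exon 4 was 37.5% (exact 95% interval 24.9 to 51.5%) without and 45.05% (38.1 to 52.2%) with Pcgf1 exon reads, intervals that overlap. By label 1 of 10 rows, row 7, had groups that did not overlap.

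**Figure D2:**
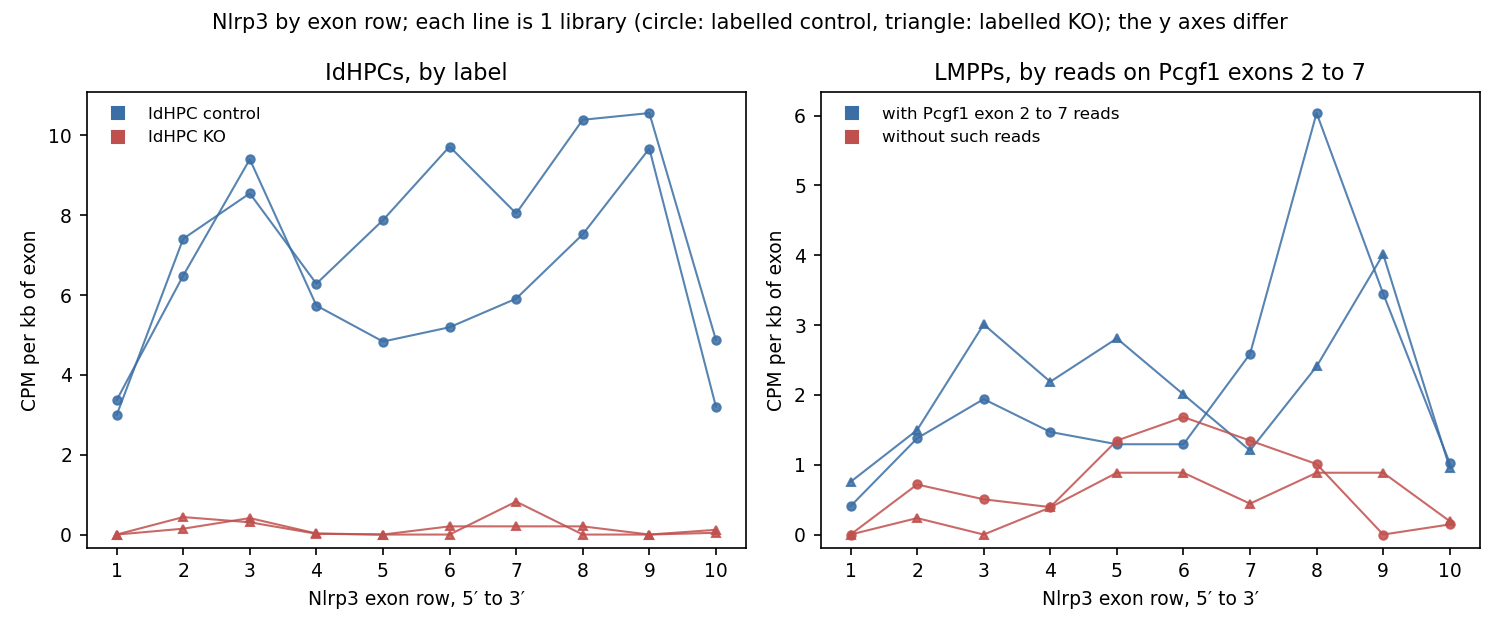
CPM per kilobase of exon on each of the 10 Nlrp3 exon rows, 5′ to 3′, with 1 line per library, in IdHPCs by label (left) and LMPPs by reads on Pcgf1 exons 2 to 7 (right). The y axes differ. KO IdHPC libraries stayed below the controls on all 10 rows, and LMPP libraries without Pcgf1 exon reads overlapped the others on rows 5, 6 and 7.

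None of the tested genes closest to Nlrp3 on its chromosome had a difference near that of Nlrp3 in IdHPCs. The 3 nearest tested genes before it, Zkscan17, 4933439C10Rik and Zfp867, differed by -0.14, -0.53 and 0.26 on the log2(CPM + 1) scale in KO IdHPCs. The 3 after it, Mprip, 1700007J10Rik and Flcn, differed by 0.17, -0.24 and -0.06. None of the 6 was called with limma, in a comparison in which 0.530% of genes were. They lie 14.8 to 224 kb from Nlrp3, and between Nlrp3 and the closest of them on each side the annotation has 4 other genes, of which 3 are olfactory receptors. In LMPPs 1 of the 6 was called, Zkscan17, a zinc finger gene, which was higher in the libraries without Pcgf1 exon reads by 0.46 ± 0.08 (SE, limma adjusted p = 0.00472), where 17.2% of all genes were called.

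Over all 8 libraries, the genes whose pattern lay closest to that of Nlrp3 were Gbp8, Gbp9, Blk, Dock9 and Chst3. Likeness was the Euclidean distance of log2(CPM + 1) centered within each table, over 11248 genes tested in both, and was 1.29, 1.43, 1.56, 2.06 and 2.11 for these 5 genes, against a median of 4.497 over all genes. The distances are set mainly by IdHPCs, where Gbp8, an interferon-inducible GTPase, stood at 0.246 and 0.7999 CPM in the KO and 27.7 and 54.3 CPM in the control libraries. Blk, a kinase of the B lineage, stood at 0.702 and 4.09 CPM in the KO and 29.3 and 87.0 CPM in the control libraries. Dock9 did not follow Nlrp3 in LMPPs, with a difference of 0.19 between libraries without and with Pcgf1 exon reads.

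The other sensors gave a different picture in each cell type. Nlrc4, which assembles with NAIP proteins that bind flagellin and parts of bacterial secretion systems, was near the floor in IdHPCs with 3 and 2 reads in the KO and 1 and 2 reads in the control libraries. No fold is given for it there. In LMPPs it stood at 4.39 and 5.53 CPM with Pcgf1 exon reads (libraries labelled KO 1 and control 1) and at 0.908 and 1.15 CPM without them (labelled KO 2 and control 2). This was 4.82-fold lower, a difference of -1.55 ± 0.19 (SE, n = 2 each, limma adjusted p = 0.00049), beside -1.54 ± 0.17 for Nlrp3. On its exon rows 7 of 9 were lower without overlap.

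Nlrp1a and Nlrp1b lie side by side on the minus strand of chromosome 11 and are close copies, so that the counting of the authors may have divided their reads and the level of each is uncertain. Both detect proteases and toxins of pathogens that cut their N terminus. In IdHPCs Nlrp1a stood at 8.497 and 8.80 CPM in the KO and 7.38 and 5.70 CPM in the control libraries, higher in both KO libraries by 0.36 on the log2 scale. Nlrp1b had 41 and 0 reads in the KO and 44 and 16 reads in the control IdHPC libraries, so that the 2 KO values enclosed both control values. The lone 0 in the library KO 2 corresponds to a level below 0.141 CPM at 3 reads.

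In LMPPs both copies were lower without Pcgf1 exon reads. Nlrp1a stood at 8.58 and 7.67 CPM with and 3.48 and 4.95 CPM without these reads, a difference of -0.82 ± 0.18 (SE, limma adjusted p = 0.0109). Nlrp1b stood at 2.47 and 2.29 CPM with and 0.454 and 0.978 CPM without, a difference of -0.99 ± 0.22 (SE, limma adjusted p = 0.0113). Nlrp1b passed the filter of 1 CPM only through the libraries in which it was high, so that its call is no independent support. Neither pair of groups overlapped. Both calls were lost without the library labelled KO 2, with adjusted p = 0.0699 for Nlrp1a and 0.0701 for Nlrp1b, and over all alternatives their adjusted p ran from 0.000155 to 0.269 and from 8.88e-05 to 0.210.

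Aim2, the sensor of double-stranded DNA in the cytosol, was the sensor with the highest level per kilobase in LMPPs. It stood at 27.4 and 26.4 CPM in LMPP libraries with Pcgf1 exon reads and 14.8 and 15.9 CPM in those without, a difference of -0.77 ± 0.11 (SE, limma adjusted p = 0.00112). All 4 values lay within narrow pairs, and 8 of its 9 rows were lower without overlap. In IdHPCs it stood at 2.35 and 1.22 CPM in the KO and 3.74 and 1.83 CPM in the control libraries, and the groups overlapped.

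The adaptor Pycard links sensors to caspase-1 through its pyrin and CARD domains. It stood at 12.5 and 15.2 CPM in KO and 10.99 and 11.8 CPM in control IdHPC libraries, higher by 0.25 on the log2 scale without overlap. In LMPPs it stood at 57.1 and 58.7 CPM with Pcgf1 exon reads and at 38.9 and 39.7 CPM without them, a difference of -0.55 ± 0.09 (SE, limma adjusted p = 0.00214). Pycard had the smallest standard error of the 9 genes tested in this fit, and all 3 of its rows were lower.

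Casp1, the protease that matures both cytokines, was the member that stood apart most from Nlrp3 in IdHPCs. It stood at 19.7 and 14.1 CPM in the KO libraries (560 and 299 reads) and at 5.27 and 3.75 CPM in the controls (172 and 131 reads). The groups did not overlap, all 10 of its rows were higher, and the mean was 3.74-fold that of the controls, a difference of 1.69 on the log2(CPM + 1) scale with SDs of 0.32 and 0.28. It ranked number 14 from the top of 12273 genes. In LMPPs its direction was the opposite: 23.7 and 30.1 CPM with and 17.8 and 17.3 CPM without Pcgf1 exon reads, a difference of -0.58 ± 0.13 (SE, limma adjusted p = 0.013). That call did not hold without the library labelled control 1 (adjusted p = 0.0728) or without the library labelled control 2 (0.0502), and its adjusted p ran from 0.000312 to 0.272 over all alternatives.

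Casp4, known in mice as caspase-11, binds bacterial lipopolysaccharide directly and starts the noncanonical pathway. The gene begins just after Casp1 on chromosome 9, at 5308828 where Casp1 ends at 5307265, both on the plus strand. In IdHPCs it stood at 5.27 and 4.94 CPM in the KO and 2.82 and 1.81 CPM in the control libraries, 2.21-fold higher, with 6 of 9 rows higher without overlap. In LMPPs it stood at 3.91 and 5.23 CPM with and 2.57 and 2.76 CPM without Pcgf1 exon reads. This difference of -0.59 ± 0.18 (SE) missed the threshold narrowly (limma adjusted p = 0.0508, 0.016 to 0.341 over the alternatives), so that Casp4 was not called.

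The cytokine genes were scarce. Il1b had 0 reads in all 4 IdHPC libraries, which allows at most 0.086 to 0.141 CPM at 3 reads. In LMPPs it had 3 and 8 reads in the libraries labelled KO 1 and control 1, and 2 reads each in the libraries without Pcgf1 exon reads, below the filter for testing. Il18 stood at 1.44 and 2.49 CPM in KO and 0.980 and 2.09 CPM in control IdHPC libraries, which overlapped. In LMPPs Il18 stood at 1.30 and 1.77 CPM with and 1.14 and 1.09 CPM without Pcgf1 exon reads, a difference of -0.26 ± 0.20 (SE, 95% interval -0.71 to 0.19, limma adjusted p = 0.444).

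Counted together, 8 of the 10 genes passed the filter in IdHPCs, 1 of them lower and 4 higher in both KO libraries than in both controls, where 21.3% of all genes tested were lower and 25.6% higher in this way. The median difference over these 8 was 0.25, against 0.01 over all genes. Nlrp3 passed there through the control libraries alone. In LMPPs arranged by Pcgf1 exon reads 9 passed the filter and 7 of these were called, all of them lower, where 17.2% of all genes were called and 7.08% were called lower. Without Nlrp1b, which passed through the high group alone, 6 of 8 were called, with a median of -0.68 over the 8 against -0.02 over all genes. All 9 were lower in both libraries without the reads than in both with them, where 29.9% of all genes tested were. Il1b, not tested, had too few reads for its order to be read, and all 5 of its rows with reads overlapped. By label 0 of 9 were called with limma (0 at an unadjusted p below 0.05), all 10 overlapped, and the median was -0.13. In bulk RNA, fewer cells of a type and less RNA per cell cannot be told apart.

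**Figure D3:**
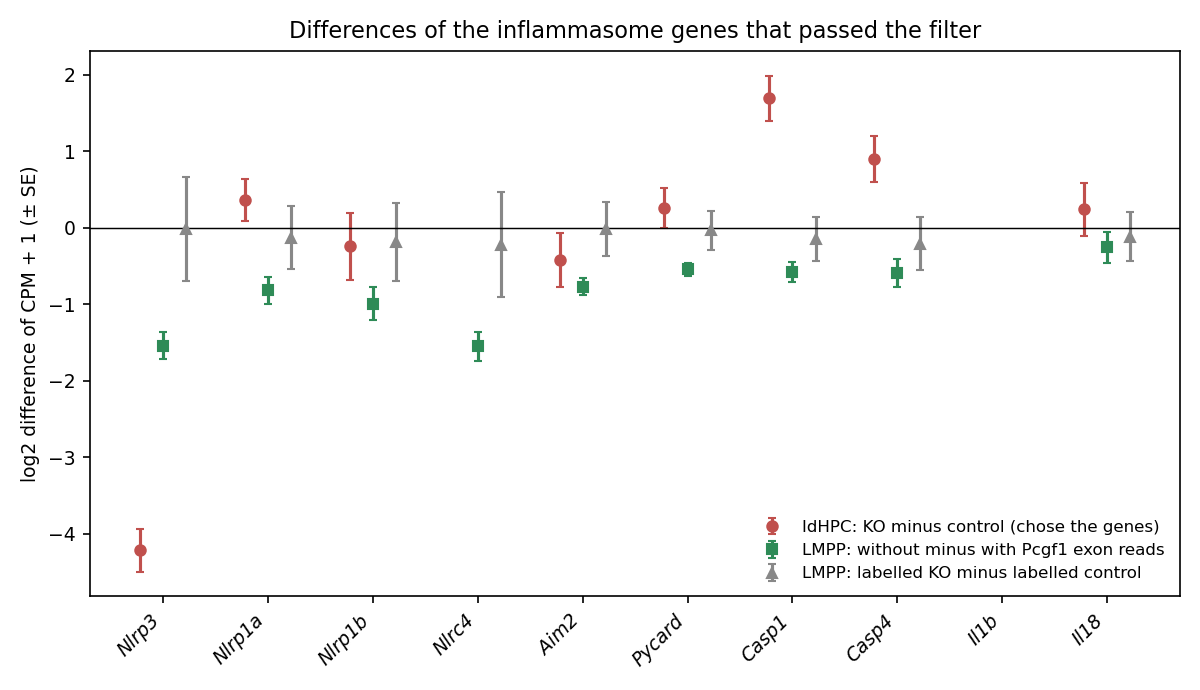
Difference on the log2(CPM + 1) scale with its SE for each gene that passed the filter, in 3 comparisons: KO minus control in IdHPCs, libraries without minus with reads on Pcgf1 exons 2 to 7 in LMPPs, and labelled KO minus labelled control in LMPPs. Nlrp3 lay at -4.21 and Casp1 at 1.69 in IdHPCs, all 9 tested genes lay below 0 in LMPPs by exon reads, and by label the SE of each gene spanned 0.

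Levels of different genes were compared as CPM per kilobase of annotated exon, within a group. In control IdHPCs the order was Pycard (8.12), Nlrp3 (6.02), Casp1 (3.01), Il18 (2.19), Nlrp1a (1.24), Aim2 (0.794), Casp4 (0.623), Nlrp1b (0.135), Nlrc4 (0.0115) and Il1b (0). Casp1 and Il18, and likewise Aim2 and Casp4, overlapped between neighbors. In KO IdHPCs Casp1 (11.3) and Pycard (9.84) led with overlapping libraries, and Nlrp3 (0.0897) had moved to place 8, overlapping Nlrp1b (0.107). Nlrp3 was thus the most abundant sensor transcript per kilobase in control IdHPCs and lay below Nlrp1a, Casp4 and Aim2 in KO IdHPCs.

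In LMPPs with Pcgf1 exon reads the CPM per kilobase ran from Pycard (41.2), Casp1 (18.0) and Aim2 (7.67) through Il18 (2.19), Nlrp3 (1.77), Nlrp1a (1.54), Nlrc4 (1.29) and Casp4 (1.23) to Nlrp1b (0.355) and Il1b (0.209). Il18 overlapped Nlrp3, and Nlrc4 overlapped Casp4. Without these reads the first 4 kept their order, and Nlrp3 (0.444) lay at place 7, below Nlrp1a (0.797) and Casp4 (0.719). The level of Il18 per kilobase is uncertain, since the mm9 annotation gives it 702 exon bases and the RefSeq start lies farther upstream.

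Other genes of the pathway were counted from 5 lists, of which 72 of 75 symbols were in the tables. In IdHPCs 61 were tested and 0 were called with limma (9 at an unadjusted p below 0.05), where 0.530% of all genes were. With DESeq2 3 were called, beside 497 of all 12273 genes. With edgeR's exact test 4 were called, beside 610 of all genes. The libraries did not overlap for 16 that were higher and 14 that were lower of the 61, shares near the 25.6% and 21.3% of all genes, and the median difference was -0.07 against 0.01 for all genes. The 3 with the largest differences were Il1rn, Casp12 and Nlrc3, none of which passed the main limma test. Il1rn, the natural antagonist of the interleukin-1 receptor, stood at 38.4 and 7.15 CPM in KO and 5.33 and 1.40 CPM in control libraries (2.20 ± 0.64 on the log2 scale, adjusted p = 0.141).

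Casp12, another inflammatory caspase, stood at 13.8 and 10.6 CPM in KO and 4.56 and 4.44 CPM in control IdHPC libraries (1.25 ± 0.28, limma adjusted p = 0.074). Nlrc3, a sensor that dampens innate signaling, stood at 8.25 and 7.58 CPM in KO and 16.3 and 19.3 CPM in control libraries (-1.08 ± 0.26, adjusted p = 0.0923). Neither gene's libraries overlapped between groups. In LMPPs Casp12 stood between 1.44 and 1.72 CPM in all 4 libraries.

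In LMPPs arranged by Pcgf1 exon reads, 62 pathway genes were tested and 18 were called, 16 lower and 2 higher in the libraries without these reads. Against this stand the 7.08% of all genes called lower and 10.1% called higher, and medians of -0.08 for the pathway genes and -0.02 for all genes. Of 11 genes listed as other sensors 5 fell (Nlrc5, Naip2, Naip5, Naip6 and Ciita). Of these, 3 are NAIP proteins, the receptors that hand flagellin or secretion needle signals to Nlrc4. Nlrc5 and Ciita are activators of MHC genes rather than inflammasome sensors. Among 12 genes of activation and regulation, P2rx7, Trim30a and Serpinb1a fell and Tnfaip3, a deubiquitinase that restrains NF-κB, rose. Of 11 caspases and genes of pyroptosis Casp8 and Gsdmd fell and Ninj1, which ruptures the membrane of dying cells, rose. Of 8 genes of the interleukin-1 family Il1r2, Il1rl1, Il18r1 and Il18rap fell, and of 20 genes of interleukin-1 receptor and NF-κB signaling Nfkb1 and Nfkbia fell.

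The largest of these differences in LMPPs concerned receptors. Il18r1, which with Il18rap forms the receptor for interleukin-18, stood at 8.92 and 10.2 CPM with and 2.42 and 1.73 CPM without Pcgf1 exon reads (-1.79 ± 0.18, SE, limma adjusted p = 0.000149). Il18rap stood at 37.7 and 38.0 CPM with and 11.1 and 13.6 CPM without them (-1.55 ± 0.12, adjusted p = 4.65e-05). P2rx7, the ATP-gated channel whose opening triggers Nlrp3, stood at 33.8 and 37.5 CPM with and 11.4 and 11.05 CPM without them (-1.58 ± 0.11, adjusted p = 3.59e-05). Both subunits of the interleukin-18 receptor and the ATP channel were thus lower in each library without these reads.

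Trim30a, described as a regulator of Nlrp3, differed by -1.43 ± 0.10 (SE, limma adjusted p = 3.59e-05), Naip6 by -1.28 ± 0.14 (0.000277) and Ciita, the master activator of MHC class II genes, by -1.23 ± 0.24 (0.00617). In IdHPCs Il18r1 stood at 229.3 and 161.8 CPM in the KO and 209.8 and 246.0 CPM in the control libraries, which overlapped. Il18rap (79.6 and 32.8 CPM in KO, 81.9 and 90.5 CPM in control libraries) and Naip6 (1.44 and 1.36 CPM, 2.60 and 2.92 CPM) were lower in both KO IdHPC libraries, as in LMPPs, but were not called there. By label 0 of the 62 pathway genes were called in LMPPs with limma (0 at an unadjusted p below 0.05), and the largest differences were those of Fadd (-0.25), Nlrp10 (-0.22) and Nek7 (-0.20).

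Markers of other cell types moved along with some of these values. In IdHPCs the summed CPM of 12 genes of stroma was 6845 and 5537 in the KO and 3161 and 2773 in the control libraries, all 10 that passed the filter were higher in both KO libraries, as 25.6% of all genes were, and Dcn and Lum were at 0. Of the 10, Col1a2 and Sparc were called higher (limma adjusted p = 0.0444 and 0.0271), where 0.530% of all genes were called. The TSt-4 feeder cells of the culture are such a source, and this sum moved with the higher Casp1, Casp4, Casp12 and Il1rn. Its part in those values was not tested. Mature myeloid markers, 17 genes with Elane, S100a8 and S100a9 at 0, summed to 67.8 and 71.1 CPM in KO and 72.8 and 65.5 CPM in control IdHPCs, a sum that hides single genes moving either way. Of the 8 tested, 3 were higher and 2 lower in both KO libraries, where 25.6% of all genes were higher and 21.3% lower in this way. With limma 0 of the 8 were called (4 at an unadjusted p below 0.05). Those that were lower, as Nlrp3 was, were Itgam (0.446 against 1.69 CPM on average) and Ctss (19.4 against 31.5 CPM), while Lyz2 (3.57 against 1.16 CPM) and Mpo (2.40 against 0.817 CPM) were higher. Of 2 dendritic markers tested 0 were called with limma (1 at an unadjusted p below 0.05), with Siglech lower (0.546 against 3.23 CPM) and Bst2 higher (132.4 against 100.2 CPM) in both KO libraries, and the dendritic sum was 113 and 156 CPM in KO against 109 and 99.7 CPM in control libraries. Of 7 B lineage markers tested 1 was called, Blk, which was lower as Nlrp3 was (limma adjusted p = 0.0139). Pax5 was also lower in both KO libraries (1.42 against 5.002 CPM) without a call, whereas Vpreb1 (43.2 against 17.0 CPM) and Igll1 (50.2 against 17.3 CPM) had higher means with overlapping libraries. Of 8 progenitor markers 0 were called with limma (3 at an unadjusted p below 0.05), with Cd34 (212 against 106 CPM), Ly6a (72.2 against 39.4 CPM) and Sox4 (327.5 against 262.6 CPM) higher and Ptprc (188 against 293 CPM) and Il7r (51.3 against 71.9 CPM) lower in both KO libraries. The shares of all genes, 25.6% higher and 21.3% lower, also stand beside the dendritic, B lineage and progenitor markers. The part of these cell types in the Nlrp3 and Casp1 values was not tested. Markers of mast cells and basophils were at 0 for 6 of 8 genes.

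In LMPPs the mature myeloid sum was 3002 and 3045 CPM in the libraries labelled KO 1 and control 1, and 2600 and 2535 CPM in the other pair, labelled KO 2 and control 2, and 9 of the 14 tested markers were called lower without Pcgf1 exon reads, against 7.08% of all genes. Most of this sum was Mpo, at 1993.8 CPM on average with and 1889.9 CPM without these reads. Mpo was not called (limma adjusted p = 0.584), so the sum says little about the other markers of the list. Dendritic markers summed to 226 and 246 CPM with and 162 and 166 CPM without these reads, with 2 of 5 called, both lower. Bst2 (141.2 against 63.4 CPM) carried this difference in the sum, while Itgax went the other way (78.8 with against 93.8 CPM without the reads) and was not called. The myeloid and dendritic sums moved in the same direction as the inflammasome genes, which mature myeloid and dendritic cells express, and their part in the LMPP differences was not tested. Stromal markers summed to 37.9 and 36.4 CPM with and 49.9 and 58.7 CPM without these reads, with Col3a1, Dcn, Lum and Postn at 0 and Pdgfrb called higher (limma adjusted p = 0.00433). Mast cell and basophil markers summed to 55.2 and 62.4 CPM with and 49.7 and 42.5 CPM without them, with Hdc called lower and Cma1 called higher of 4 tested. Of 2 B lineage markers tested, Blk was called lower. Cma1 (31 reads without against 2 reads with Pcgf1 exon reads) and Blk passed the filter only through the libraries in which they were high. Their calls are therefore no independent support. Progenitor markers summed to 1918 to 2072 CPM. Within the progenitor list 4 of 8 markers were called without Pcgf1 exon reads, Ly6a (3.47 against 14.7 CPM, limma adjusted p = 0.000113) and Il7r (0.916 against 3.35 CPM, 0.00283) lower and Kit (367.9 against 242.6 CPM, 0.00132) and Meis1 (62.1 against 39.0 CPM, 0.00121) higher. Beside the counts of all these lists, 17.2% of all genes were called, 10.1% higher and 7.08% lower. Ly6a, which defines LMPPs, thus moved in the same direction as the inflammasome genes.

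**Figure D4:**
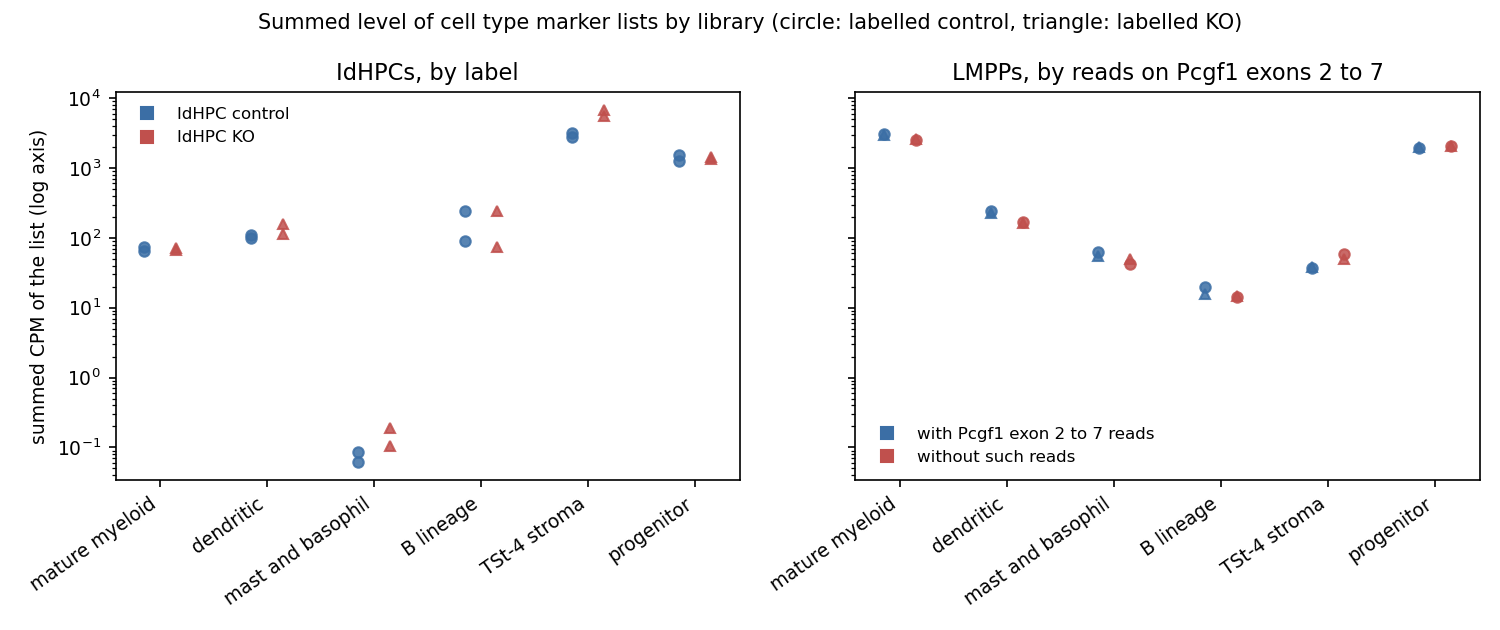
Summed CPM (log axis) of 6 lists of cell type markers in each library, for IdHPCs by label (left) and LMPPs by reads on Pcgf1 exons 2 to 7 (right). The stroma sum was higher in both KO IdHPC libraries (6845 and 5537 CPM) than in the controls (3161 and 2773 CPM), and the mature myeloid and dendritic sums were lower in LMPP libraries without these reads.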

How the data were processed

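Poly(A) RNA of 4 IdHPC and 4 LMPP libraries was sequenced. Per the paper's methods and the labels, the authors aligned reads to mm9 (HISAT2 in the methods, TopHat2 2.0.13 and edgeR in the submitters' processing notes), counted them with Rsubread and deposited CPM values, counts scaled by the library total,, 1 table per cell type with 284716 exon rows. Whether counting used strand is not stated. The CPM filter of the methods is not applied in these tables. The 2 tables were normalized separately, so each was tested alone.

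From these values, a row equal to the row before it in all 8 libraries (same symbol) was dropped as a repeat, and the rest were summed per symbol. Neighbors equal by chance would be dropped too. Repeated rows stayed in the authors' library totals. Every value was a whole number of reads (100.0% of values, tolerance 0.001), which gave the reads printed, so that the deposited CPM could also be tested as counts. Reads carry no molecular identifiers.

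Genes were tested with limma 3.58.1 (R 4.3.3), moderated by empirical Bayes with a trend on the mean, after a log2(CPM + 1) transform. Tested were genes with CPM of at least 1 in at least 1 of the 4 libraries, with Benjamini-Hochberg adjustment over all genes tested and a threshold of 0.05. A fold change on this scale understates the change of low genes, so ratios of mean CPM are given beside it. The fits were tested on simulated data. Alternatives were a pseudocount of 0.1, CPM of at least 1 in at least 2 libraries, no filter, median-ratio scaling, all rows with repeats, each library left out, edgeR 4.0.16 (exact test and quasi-likelihood) and DESeq2 1.42.0 on the recovered reads, and the replicate number as a block or, by Pcgf1 exon reads, the labelled genotype as a term. Repeats judged within 1 table were added after the data had been seen.

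The 10 genes, the pathway and marker lists and the arrangement of LMPP libraries by Pcgf1 exon reads were chosen with earlier results of these data known. Named beside the 10 genes were, per comparison, up to 6 called pathway genes of largest difference (3 where none was called), the 5 genes nearest Nlrp3 in pattern, and the 3 nearest tested genes on each side of it. Other called pathway genes, Pcgf1 and cell type markers were named in addition. No 2 libraries agreed within counting noise (chi-square per degree of freedom 4.93 to 110). Gene coordinates and exon lengths are from the NCBIM37 (mm9) annotation, and sequences from RefSeq (GRCm38.p6).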

Additional observations from a re-analysis of the deposited data

Results flagged for a closer look

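For 4 of the genes every KO library moved one way in IdHPCs while both LMPP libraries without reads on Pcgf1 exons 2 to 7 moved the other way. Of all genes tested, 25.6% were higher without overlap in IdHPCs and 29.9% were lower without overlap in LMPPs. On the log2(CPM + 1) scale Nlrp1a differed by 0.36 in IdHPCs and by -0.82 in LMPPs. Pycard differed by 0.25 and -0.55, Casp1 by 1.69 and -0.58, and Casp4 by 0.90 and -0.59. In IdHPCs the SE was 0.28 for Nlrp1a and 0.26 for Pycard, near the size of their differences. The difference between the cell types was not tested, since the 2 tables were normalized separately and the IdHPC values took part in the choice of the genes. Nlrp3 differed in the same direction in both, by -4.21 and -1.54.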

How the results depend on the processing

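For LMPPs arranged by Pcgf1 exon reads, Nlrp3 stayed lower and called under 13 of 14 alternatives, and was -1.54 with adjusted p = 0.122 with no filter on low values. With no filter the genes called fell from 2089 to 169, the 10 members called from 7 to 0 and the pathway genes from 18 to 0, with more genes tested. Leaving out 1 library at a time gave 1291 (without the library labelled control 2) to 1947 genes, 5 to 8 members, 12 to 17 pathway genes, and -1.65 to -1.43 for Nlrp3. Casp4 was called with edgeR's exact test (adjusted p = 0.0176), with CPM of at least 1 in 2 libraries (0.0494), with the labelled genotype as a term (0.0358) and without the library labelled KO 1 (0.016).

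In IdHPCs Nlrp3 stayed lower throughout, by -6.09 with DESeq2, -6.05 with edgeR's exact test and quasi-likelihood test and -5.72 with a pseudocount of 0.1, and by -4.35 to -4.08 with 1 library left out. The 65 genes called became 497 with DESeq2, 610 with the exact test, 124 with quasi-likelihood, 104 with median-ratio scaling and 4 with no filter, and 14 (without control 2) to 825 (without KO 1) with 1 library left out, with 230 without KO 2. Pathway genes called were 0, and 3 with DESeq2, 4 with the exact test, and 0 to 5 with 1 library left out (5 without KO 1, 2 without KO 2, 1 without control 1). The weak differences of 2 genes turned with 1 library left out: Nlrp1b ran from -0.89 to 0.40 (0.40 without KO 2, 0.10 without control 1) and Il18 from -0.083 to 0.56 (-0.02 without KO 2, -0.083 without control 1). By label in LMPPs, Nlrp3 was 0.11 with DESeq2 and the exact test and 0.12 with quasi-likelihood, and ran from -0.89 to 0.86 with 1 library left out (0.86 without KO 2, 0.65 without control 1). The cause of these changes was not tested. No scaling moved the median of all genes by over 0.1.

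Same-numbered libraries deviated together with a correlation of 0.147 in IdHPCs and 0.705 in LMPPs, from 2 pairs each. The labels do not say what a number marks, and 2 pairs are too few to settle a pairing. In LMPPs same-numbered libraries also share their Pcgf1 exon status, so that both sources of likeness cannot be told apart. With the replicate number as a block, 669 genes and 3 pathway genes were called in IdHPCs and 3 genes in LMPPs by label, where Nlrp3 was -0.02 ± 0.21 (SE) against ± 0.68 without the block. No block could be fitted by Pcgf1 exon reads, with which the number coincides. Outside row 4, low read counts limit what single Nlrp3 rows can show in LMPPs.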
